A study of Mus musculus with 6 samples.

Results

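The growth hormone receptor, the STAT5 transcription factors that relay its signal, and a set of genes downstream of them were followed in 6 mouse liver tumours. The set held 8 genes, Ghr, Stat5a, Stat5b, Bcl6, Cux2, Mup3, Mup7 and Mup20, taken by name from the 43346 gene rows of the deposited count table, and all 8 were found. The genes were chosen by name with earlier results of the genotype comparison in these tumours known, that is, selected on their counts and fold changes between genotypes, so those differences are given as descriptions, without a test of their own. The tumours were induced with diethylnitrosamine (DEN), a liver carcinogen that is activated in hepatocytes, in mice named SULF2-TTR that overexpress the extracellular sulfatase SULF2. In 3 tumours Gli1, the Hedgehog pathway transcription factor, was wild type (WT), and in 3 it was knocked out (KO); SULF2 overexpression was common to the 2 groups. The labels give neither the age or sex of the animals, nor the DEN dose, nor the nature of the knockout allele, nor what drives SULF2 expression, nor whether each tumour came from a separate mouse, so the spread reported is that between these samples.

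Growth hormone binds its receptor on hepatocytes and activates the kinase JAK2, which phosphorylates STAT5A and STAT5B. The phosphorylated proteins pair, enter the nucleus and switch on genes for circulating growth factors, for feedback inhibitors of the pathway and, in mouse liver, for many genes that differ between the sexes. Male mice release the hormone in pulses, and male liver makes large amounts of the major urinary proteins (MUPs), small lipocalins that carry pheromones into urine. BCL6 is a repressor that binds sites resembling those of STAT5 and is more abundant in male liver, whereas CUX2 is a repressor made in female liver that lowers male-biased genes.

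Total counts ranged from 75205624 to 132979502 reads per library. Gli1 itself was counted at 10, 20 and 7 reads in WT replicates 1, 2 and 3 and at 4, 3 and 3 in the KO replicates, each KO library below each WT library. The row of Sulf2 varied widely, at 76.4, 11.6 and 5.33 CPM (normalized read counts, divided by the scaled library size) in WT and 164, 2.63 and 10.2 in KO, so it did not show a common high level. Whether reads of the overexpressed gene fall on this row is not known from the labels. All 6 tumours expressed the Y-linked gene Ddx3y, at 37.6 to 71.2 CPM, and Xist had 4 to 29 reads. Summed hepatocyte markers, 9 of 10 listed genes found, ranged over the WT tumours from 165158 to 227438 CPM and over the KO tumours from 161357 to 186247. Summed cholangiocyte markers (7 of 7 found) were 483, 436 and 472 CPM in WT replicate 3 and KO replicates 1 and 3, against 39.5 to 80.5 in the other libraries, and most of each sum was Spp1, at 457, 413 and 465 CPM in those 3. Epcam was at 4.29 and 3.28 CPM in WT replicate 3 and KO replicate 1 but at 0.205 in KO replicate 3, which was also lowest in Muc1 and had Cftr at 0. Levels below are normalized CPM unless another scale is named, and because the samples are bulk tissue, fewer cells of a type and less RNA per cell cannot be told apart.

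None of the 8 genes separated the genotypes completely. Ghr, Cux2 and the 3 Mup genes had lower fitted levels in KO, and Bcl6, Stat5a and Stat5b had higher ones, in the plot of fold changes. The median log2 fold change (KO minus WT) was -0.61 over the 8 genes and -0.01 over the 18359 genes tested. By edgeR's quasi-likelihood test 0 of 8 passed a false discovery rate (FDR) of 0.05, as did 0% of all genes tested, with 0.407 as the lowest FDR. Mup7 and Cux2 had an unadjusted p under 0.05, as did 665 genes (3.62%) in all. DESeq2 called 62 genes (0.317% of those it adjusted), Mup7 among them, and limma voom called 0. Groups did not overlap for 8.11% of all genes and for 0 of the 8. Since the list was chosen with this contrast known, nothing is read from these counts.

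**Figure D1:**
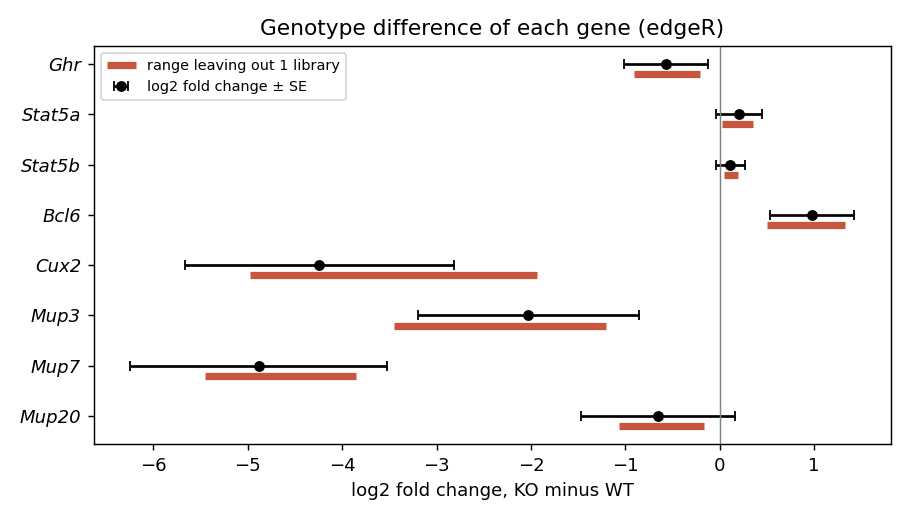
Log2 fold change of each gene, KO minus WT, from edgeR (points, with SE bars, n = 3 tumours per group), over the range obtained when each library was left out in turn (red). Stat5a and Stat5b lie close to 0, whereas Cux2 runs from -4.98 to -1.94 depending on the library left out.

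The receptor gene Ghr (ENSMUSG00000055737, chromosome 15, 3317760 to 3583492, minus strand) was the most abundant signalling gene of the set, with a mean of 22.3 RPKM (reads per kilobase of the gene's length and per sequenced reads, as the authors computed it). WT replicates 1, 2 and 3 had 305, 403 and 131 CPM, and the KO replicates 124.8, 206 and 234. WT replicates 1 and 2 were the highest, and WT replicate 3 lay with KO replicate 1 at the bottom, so the genotypes overlapped. The group means were 279.5 ± 137 (SD, n = 3) in WT and 188 ± 56.7 in KO, and the log2 fold change was -0.57 ± 0.45 (SE). It was -0.21 without WT replicate 2 and -0.91 without WT replicate 3.

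**Figure D2:**
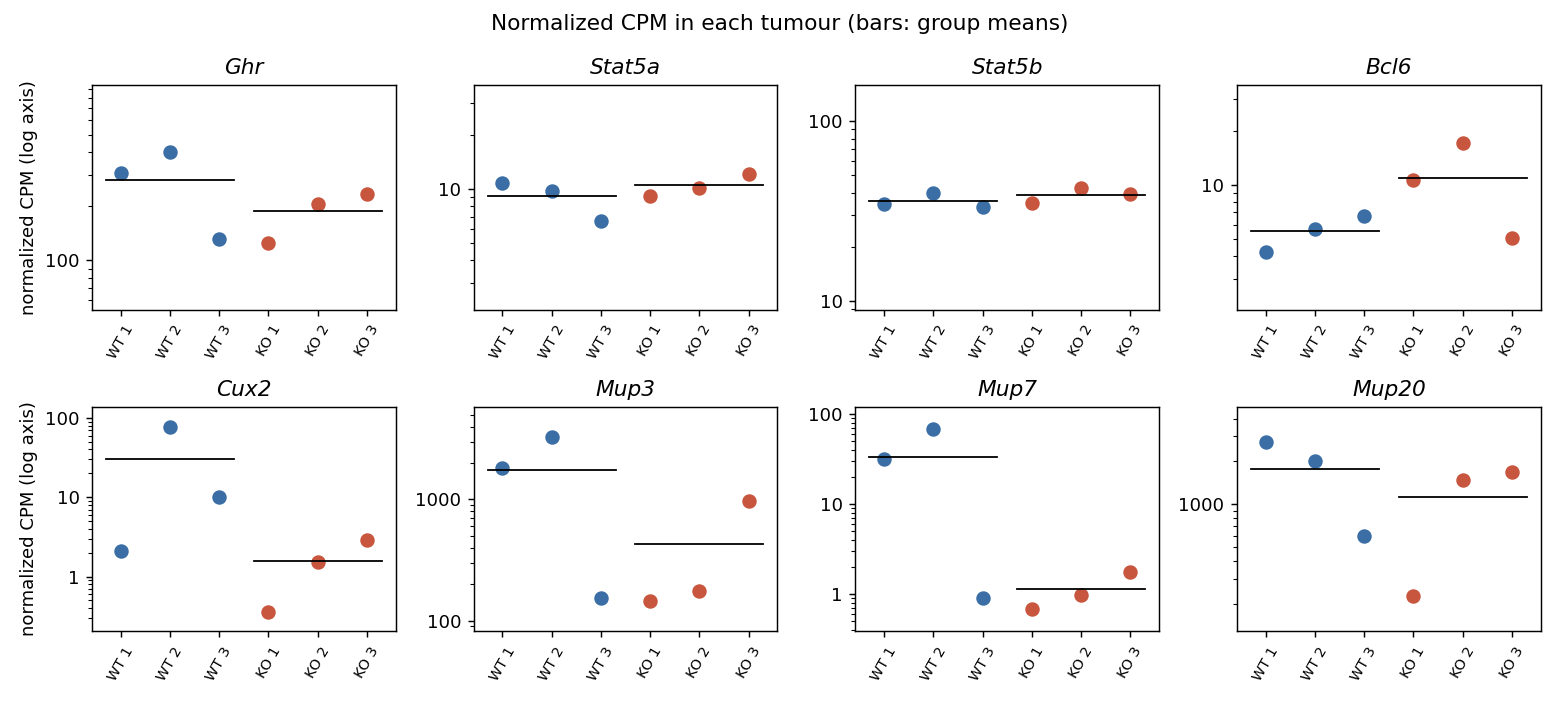
Normalized CPM of the 8 genes in each tumour on log axes, WT in blue and KO in red, with a bar at each group mean (n = 3). Stat5b varies 1.28-fold over the 6 tumours, whereas Mup7 varies 99.8-fold and Cux2 216-fold.

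The STAT5 genes were the steadiest of the set. Stat5b (chromosome 11, 100780731 to 100850724, minus strand), which encodes the form that dominates in liver, stood at 34.6, 39.9 and 33.4 CPM in the WT tumours and at 34.9, 42.7 and 39.1 in the KO tumours. Its highest tumour stood 1.28-fold above its lowest, and the SD of its log2 level over the 6 tumours was at percentile 9.35 among the 13873 genes with a mean of at least 1 CPM. The log2 fold change was 0.11 ± 0.15 (SE), and the genotypes overlapped.

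Stat5a (chromosome 11, 100859351 to 100885169, plus strand) was lower, with a mean of 1.201 RPKM against 5.93 for Stat5b. CPM were 10.8, 9.72 and 6.62 in WT and 9.15, 10.04 and 12.1 in KO, with WT replicate 3 lowest and KO replicate 3 highest. The log2 fold change was 0.20 ± 0.24 (SE), ranging from 0.02 when WT replicate 3 was left out to 0.36 when WT replicate 1 was. The deposited span of Stat5a overlaps that of Stat3 on the other strand, and the Stat3 row held 1692% as many reads as Stat5a. No source says whether counting used strand, so reads of the 2 genes in the overlap cannot be told apart. Of the stretches of 50 bases in annotated Stat5b transcripts, 10.98% also occur in Stat5a, which limits how far the paralogs can be separated.

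Bcl6 (ENSMUSG00000022508, chromosome 16, 23965052 to 23988852, minus strand) was higher in KO replicates 1 and 2 than in any other tumour. The WT tumours had 4.22, 5.68 and 6.73 CPM and the KO tumours 10.7, 17.1 and 5.02, so that KO replicate 3 lay within the WT range. Means were 5.55 ± 1.26 (SD, n = 3) in WT and 10.9 ± 6.06 in KO, a log2 fold change of 0.98 ± 0.45 (SE). It was 0.50 without KO replicate 2 and 1.33 without KO replicate 3. BCL6 is also known from germinal centre B cells. The summed B cell markers went the other way, with sums of 5.13 to 8.24 CPM over the WT tumours and 2.97 to 4.31 over the KO tumours for 8 of 8 genes found. Among them, Cd79a, a part of the B cell receptor complex, ranged from 0.885 to 1.37 CPM in WT tumours and from 0.263 to 0.522 in KO tumours. Pax5 was at 0 in some tumours. The part of B cells in the Bcl6 values was not tested. A row of the table that overlaps Bcl6 held 9.59% as many reads as Bcl6 itself.

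The bases before the 2 annotated RefSeq starts of Bcl6 are shown because they carry the palindrome TTCNNNGAA, the core of STAT binding sites, which BCL6 sites resemble. Capitals mark its matches in the 250 bases before each start (RefSeq, GRCm38.p6, minus strand). The window at chr16:23981284-23981533, inside the deposited span of the gene, held 3 matches, beginning 168, 122 and 88 bases before the start, and the window at chr16:23988853-23989102 held 1, at 118.
Bcl6, inner start: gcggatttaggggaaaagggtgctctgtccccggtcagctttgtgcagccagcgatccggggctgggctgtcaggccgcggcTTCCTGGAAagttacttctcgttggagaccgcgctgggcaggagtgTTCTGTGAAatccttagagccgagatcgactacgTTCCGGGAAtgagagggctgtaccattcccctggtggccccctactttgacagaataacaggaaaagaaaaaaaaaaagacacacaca
Bcl6, outer start: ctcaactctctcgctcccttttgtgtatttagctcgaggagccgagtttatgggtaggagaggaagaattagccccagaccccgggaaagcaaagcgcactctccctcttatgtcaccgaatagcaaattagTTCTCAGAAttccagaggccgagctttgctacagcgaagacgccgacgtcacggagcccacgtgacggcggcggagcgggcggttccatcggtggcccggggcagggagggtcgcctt
Both strands were searched. At least 1 match was present in 7.02% of the 32851 promoter windows of the same length, and 3 or more in 9 windows (0.0274%). The first match of the inner window also fits TTCCTNGAA, a form of the palindrome preferred by BCL6 that 1.31% of windows held. A match is a string of letters and not a measured binding site.

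Cux2 (ENSMUSG00000042589, chromosome 5, 121858387 to 122050102, minus strand) was far higher in WT replicate 2 than elsewhere. CPM were 2.08, 78.0 and 10.1 in WT and 0.361, 1.53 and 2.88 in KO, with 166, 5902 and 899 reads against 38, 203 and 239. WT replicate 1 lay below KO replicate 3, so the genotypes overlapped, and the highest tumour stood 216-fold above the lowest. The fitted log2 fold change of Cux2 was -4.24 ± 1.43 (SE), and it was -1.94 without WT replicate 2. It was -2.62 with a covariate for the number that opens each sample description, which is low for WT replicate 1 and KO replicates 1 and 3 and high for the others. WT replicate 2 had 50.6 CPM of Ddx3y and 17 reads of Xist, within the range of the other tumours. The inner RefSeq promoter of Cux2 is shown because it holds ATCGAT, a core bound by CUX and ONECUT factors, in capitals, beginning 72 bases before the start (chr5:122047826-122048075, minus strand).
Cux2, inner start: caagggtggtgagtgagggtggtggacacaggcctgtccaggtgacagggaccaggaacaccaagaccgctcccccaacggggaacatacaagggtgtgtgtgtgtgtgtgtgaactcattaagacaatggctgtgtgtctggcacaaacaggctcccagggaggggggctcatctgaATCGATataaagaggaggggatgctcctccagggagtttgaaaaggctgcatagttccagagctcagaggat
ATCGAT, which reads the same on the opposite strand, was present in 0.728% of all promoter windows. It was in 0 of the windows matched for other genes of the set. Mup20 had no matched window and was not searched.

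The Mup genes were the most abundant of the set and differed strongly between tumours. Mup20 (ENSMUSG00000078672, chromosome 4, 62050234 to 62054158, minus strand), which encodes the male pheromone darcin, reached 2724, 2019 and 598 CPM in the WT tumours and 227, 1477 and 1683 in the KO tumours. At a mean of 1333 RPKM it ranked 37 among all 43346 rows. KO replicate 1 was lowest and WT replicate 3 next, while KO replicates 2 and 3 approached WT replicate 2. The means were 1781 ± 1083 (SD, n = 3) in WT and 1129 ± 788 in KO, with a log2 fold change of -0.66 ± 0.81 (SE). It was -0.16 without KO replicate 1, -0.21 without WT replicate 1 and -1.07 without WT replicate 3.

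Mup3 (ENSMUSG00000066154, chromosome 4, 62083476 to 62087342, minus strand), its neighbour in the cluster, reached 1828, 3281 and 153 CPM in the WT tumours and 145, 177 and 969 in the KO tumours. WT replicate 3 again lay with the KO tumours. The log2 fold change was -2.03 ± 1.17 (SE), from -1.20 without WT replicate 2 to -3.45 without KO replicate 3. Mup3 and Mup20 did not vary in parallel. Per length, the RPKM of Mup3 relative to Mup20 was 0.583, 1.41 and 0.222 in WT and 0.554, 0.104 and 0.500 in KO. KO replicate 2 kept a high level of Mup20 with little Mup3, and WT replicate 2 had more Mup3 than Mup20.

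Mup7 (ENSMUSG00000073842, chromosome 4, 60066469 to 60070475, minus strand) is a far less abundant gene of the central cluster, with a mean of 13.9 RPKM. Its CPM were 32.2, 68.3 and 0.911 in the WT tumours and 0.684, 0.986 and 1.77 in the KO tumours. WT replicates 1 and 2 stood far above every other tumour, and WT replicate 3 was within the KO range. Its log2 fold change of -4.88 ± 1.36 (SE) rests on those 2 tumours, with -3.85 when WT replicate 2 was left out and -4.92 when WT replicate 1 was. DESeq2 called Mup7 (adjusted p = 0.00116), whereas edgeR and limma voom did not.

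**Figure D3:**
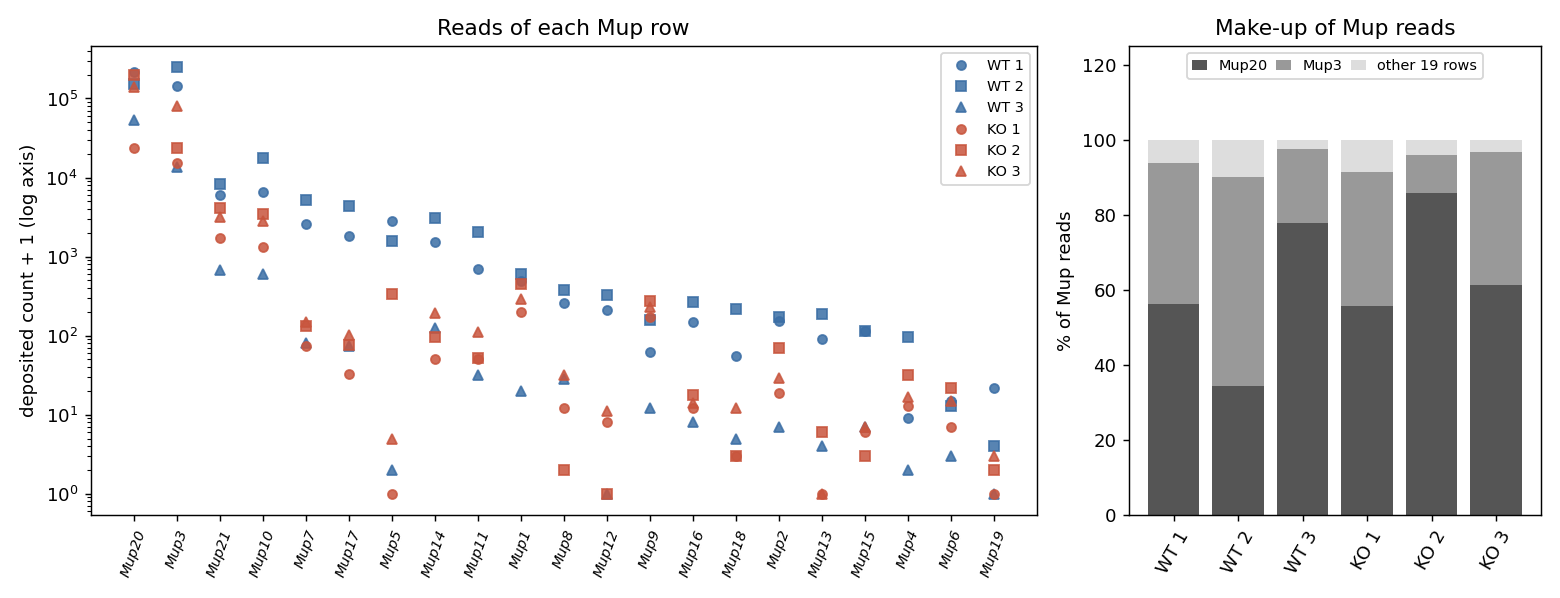
Left, deposited reads plus 1 of each of the 21 Mup rows in the 6 tumours on a log axis, ordered by mean RPKM, WT in blue and KO in red. Right, percentage of all Mup reads that fell on Mup20, Mup3 and the other 19 rows; the 2 genes together took 90.0 to 97.6% in every tumour.

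Across the Mup family, WT replicates 1 and 2 were usually the highest tumours. The table held 21 rows named Mup with a number, of which 18 passed the filter on low counts. Mup13, Mup15 and Mup19 did not. Family reads made up 0.436, 0.593 and 0.0715% of all counts in WT and 0.0447, 0.172 and 0.296% in KO. On the normalized scale the family sum was 3836 ± 2706 CPM (SD, n = 3) in WT and 1623 ± 1170 in KO, a log2 ratio of means of -1.24 that ran from -0.77 without KO replicate 1 to -1.85 without KO replicate 3. It varied 14.5-fold over the 6 tumours, where the summed hepatocyte markers varied 1.41-fold. Most of each hepatocyte sum was Alb, at 114643 to 167494 CPM. Other hepatocyte markers varied more than the sum, Cps1 from 1234 to 4165 CPM and Ahsg from 7207 to 20954. Of the 18 rows kept, 16 had a negative log2 fold change against 51.8% of all genes, and the median was -2.97. In 15 of them WT replicates 1 and 2 were the 2 highest tumours, an arrangement seen in 11.4% of all genes tested and picked out after the values were seen. The 15 rows outside the set ranged from -5.29 for Mup17 to 1.10 for Mup9. In 0 of the 18 rows were all KO tumours below all WT tumours, against 3.96% of genes tested.

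Close similarity within the family limits the single-gene values. Of the stretches of 50 bases in annotated Mup7 transcripts (GENCODE M21), 85.01% also occur in another numbered Mup gene, and 62.9% occur in Mup1. For Mup3 the share in another Mup gene was 12.6% and for Mup20 4.66%, but 48.0% of Mup20 stretches also occur in the pseudogene Mup-ps19, whose row had 42.6 to 438 CPM. No source says how reads with several matches were assigned, so Mup7 counts are uncertain. The family sum is less exposed to that choice among the numbered Mup genes, but it leaves out Mup-ps19. RefSeq promoters were matched for 14 of the numbered Mup genes, Mup3 and Mup7 included but not Mup20. The pair is shown because the levels of the 2 genes rank the 6 tumours alike, with capitals at the 26 aligned bases that differ (GRCm38.p6, chr4:62087318-62087567 for Mup3 and chr4:60070476-60070725 for Mup7, minus strand).
Mup3: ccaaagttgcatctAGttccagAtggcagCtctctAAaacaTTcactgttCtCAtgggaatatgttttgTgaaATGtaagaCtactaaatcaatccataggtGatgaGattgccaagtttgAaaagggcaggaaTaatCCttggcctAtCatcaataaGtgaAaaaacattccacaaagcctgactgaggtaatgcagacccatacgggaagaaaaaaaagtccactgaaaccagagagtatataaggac
Mup7: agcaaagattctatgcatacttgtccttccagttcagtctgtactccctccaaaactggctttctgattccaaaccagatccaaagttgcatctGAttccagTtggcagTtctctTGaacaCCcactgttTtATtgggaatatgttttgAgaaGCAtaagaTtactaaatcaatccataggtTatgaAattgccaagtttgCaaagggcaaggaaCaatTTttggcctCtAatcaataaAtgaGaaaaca
The 2 windows were 84.6% identical over 169 aligned bases, and Mup7 was 98.6% identical to Mup11 over 144. Neither window held TTCNNNGAA or ATCGAT. The Mup7 window stops before the part that would match the end of the Mup3 window. That part of Mup7 was neither compared nor searched. Bases outside the aligned stretch are also in lower case.

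The 6 tumours ranked by Ghr in the same order as by a few of its outputs. From highest to lowest, Ghr ran through WT replicate 2, WT replicate 1, KO replicate 3, KO replicate 2, WT replicate 3 and KO replicate 1. Mup3 and Mup7 followed exactly that order, and Mup20 differed from it by an exchange of WT replicates 1 and 2. Outside the set, the canonical growth hormone targets Igf1 and Igfals followed the Ghr order exactly. Igf1, the circulating growth factor that carries much of the hormone's action, stood at 415, 664 and 159 CPM in the WT tumours and at 74.0, 245 and 316 in the KO tumours. Igfals, the partner that holds IGF1 in plasma, stood at 48.0, 124.7 and 14.2 CPM in the WT tumours and at 4.46, 15.5 and 32.0 in the KO tumours. The order was found in 2 of 18 Mup rows and 2 of 16 shared targets, and in 0 of 20 feedback, 0 of 26 male-biased and 0 of 32 female-biased genes. It was found in 145 of 18359 genes (0.79%), and it was noticed after the values were seen, and is a description of 6 libraries. Stat5a, Stat5b, Bcl6 and Cux2 had other orders. The lower places of the shared order were close together. Ghr had 131 CPM in WT replicate 3 and 124.8 in KO replicate 1. In KO replicate 2, WT replicate 3 and KO replicate 1, Mup3 had 177, 153 and 145 CPM, and Mup7 had 0.986, 0.911 and 0.684. Igfals had 15.5 CPM in KO replicate 2 and 14.2 in WT replicate 3.

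For the feedback inhibitors Cish, Socs1, Socs2 and Socs3, every KO tumour was below every WT tumour, only narrowly for Cish and Socs1. Socs2, the suppressor of cytokine signalling that restrains growth hormone action, stood at 33.9, 70.4 and 41.5 CPM in the WT tumours and at 7.91, 4.47 and 14.99 in the KO tumours. Its log2 fold change of -2.41 ± 0.50 (SE, 3 tumours per group) did not pass edgeR's adjustment over all genes (FDR 1) but was called by DESeq2 (adjusted p = 0.00241). It ran from -2.05 to -2.97 when each library was left out. Cish, a classical STAT5 target that blocks receptor docking sites, stood at 21.5, 47.9 and 29.6 CPM in the WT tumours and at 13.0, 9.43 and 21.0 in the KO tumours, a log2 fold change of -1.19 ± 0.40 (SE). KO replicate 3 and WT replicate 1 were separated by a narrow margin. Socs3, which mainly restrains STAT3, had a log2 fold change of -2.77 ± 0.27 (SE, edgeR FDR 0.407).

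**Figure D4:**
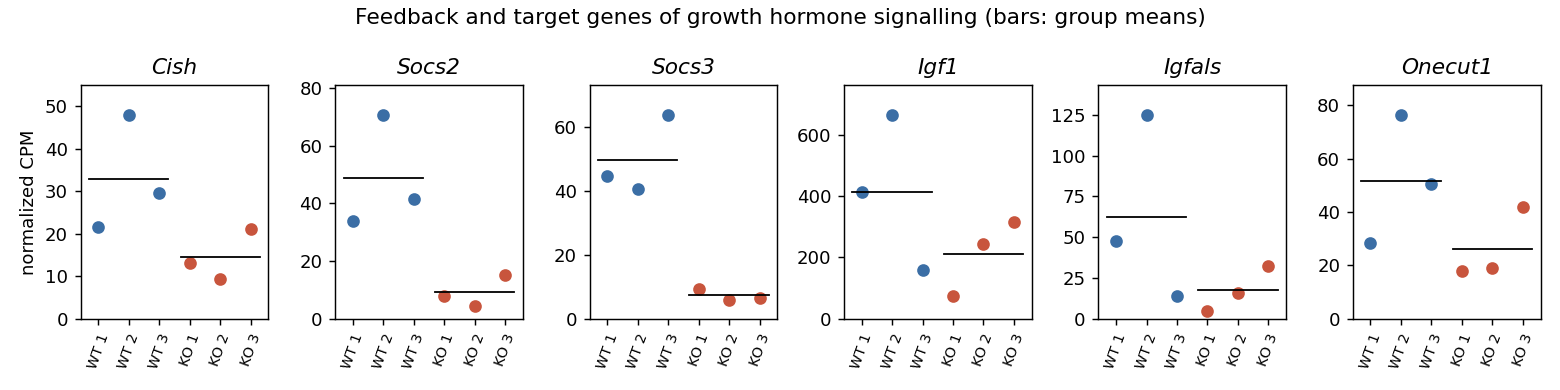
Normalized CPM in each tumour of 3 feedback inhibitors (Cish, Socs2, Socs3) and 3 targets (Igf1, Igfals, Onecut1) of growth hormone signalling, WT in blue, KO in red, bars at the group means (n = 3). The 3 inhibitors are lower in each KO tumour than in each WT tumour, whereas the 3 targets overlap.

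Over the list of signalling and feedback genes, 22 of 23 were found and 20 were tested. In 0 of them did the change pass FDR 0.05 in either direction by edgeR, and 5 had an unadjusted p under 0.05, against 3.62% of all genes. The log2 fold change was negative for 15 and positive for 5, against 51.8% negative over all genes. The median was -0.07 against -0.01 for all genes. All KO tumours lay below all WT tumours for Cish, Socs1, Socs2, Socs3 and Stat3, 5 of 20 against 3.96% of genes tested, and all lay above for 0, against 4.15%. The list was written with the Socs3 result known, and the SOCS genes also answer to cytokines through STAT3, so it is not independent evidence. Socs1 ranged from 0.105 to 0.742 CPM over the 6 tumours. Its separation rested on 0.225 CPM in WT replicate 1 against 0.199 in KO replicate 1, each from few reads. Stat3 ranged from 154 to 265 CPM in WT tumours and from 101 to 153 in KO tumours, its separation resting on 154 against 153. Its unadjusted edgeR p was 0.0579, so the 5 genes with a p under 0.05 are not the same 5. Other cell type markers also differed between the same groups. Summed endothelial markers (8 of 8 found) were 226 to 267 CPM in the WT tumours against 150 to 191 in the KO tumours, without overlap. Of these genes, Pecam1, Cdh5, Lyve1 and Tek overlapped between genotypes. Pecam1 and Cdh5 were highest in KO replicate 1, at 40.5 and 44.4 CPM. Stab2, Clec4g, Fcgr2b and, narrowly, Kdr were lower in each KO tumour than in each WT tumour. Summed neutrophil markers ranged from 9.79 to 37.0 CPM in WT tumours and from 4.85 to 9.37 in KO tumours (7 of 7 found, Ly6g and Mpo at 0 in some tumours), T and NK cell markers 3.41 to 6.24 and 2.17 to 3.67 (9 of 9 found), and macrophage markers 78.5 to 291 and 58.6 to 102 (8 of 8 found). The neutrophil sums did not overlap between genotypes, nor did the B cell sums given above, whereas those of T and NK cells and of macrophages did. Their part in the feedback result was not tested.

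Targets of growth hormone common to the sexes did not separate the genotypes. Of 16 listed genes, all 16 were tested, and 13 had negative and 3 positive log2 fold changes. Over all genes tested, 51.8% had negative ones. Of the 16 genes, 0 had an unadjusted p under 0.05 by edgeR, against 3.62% of all genes, and the median was -0.41. The median was -0.27 without KO replicate 3 and -0.20 with the description-number covariate. Igfals had -1.85 ± 0.93 (SE), from -0.84 without WT replicate 2 to -2.64 without KO replicate 3. Igf1 had -0.96 ± 0.67, with -0.44 without WT replicate 2 and -0.55 without KO replicate 1. The liver factor Onecut1, which growth hormone induces, stood at 28.3, 76.2 and 50.5 CPM in the WT tumours and at 17.9, 18.95 and 41.8 in the KO tumours (-0.98 ± 0.47, and -0.59 without WT replicate 2). The adipogenic receptor Pparg, which the hormone normally restrains in liver, had -0.43 ± 0.26, and -0.26 without WT replicate 1. Since the list mixes induced and restrained genes, a shared sign is not read as pathway output.

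Male-biased and female-biased liver genes were both highest, by their medians, in WT replicate 2. For each gene, the deviation of its log2 CPM from its mean over the 6 tumours was taken, and the median over a list was read for each library. In WT replicate 2, the tumour with high Cux2, this median was 1.06 for 26 male-biased genes and 1.37 for 32 female-biased genes, the highest value of either list. Of the female-biased genes, 56.2% were highest in that tumour, and of the male-biased genes 42.3%, against 19.96% of all genes tested. WT replicate 3 was lowest for male-biased genes at -1.02, with 0.11 for female-biased genes. KO replicate 1 was low for each list, at -0.48 and -0.59, and KO replicate 3 was at 0.54 for male-biased and -0.26 for female-biased genes.

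**Figure D5:**
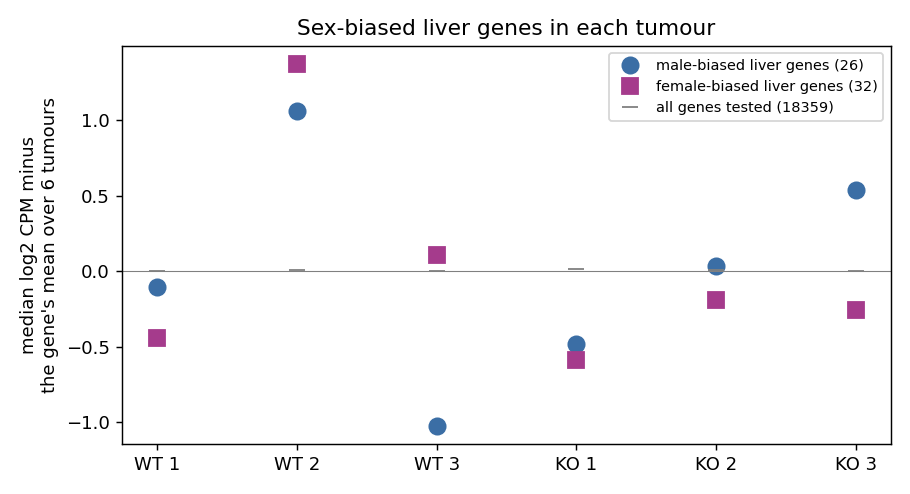
Median over each list of log2 CPM minus the gene's own mean over the 6 tumours, for 26 male-biased genes (circles), 32 female-biased genes (squares) and all 18359 genes tested (dashes). WT replicate 2 is highest for each sex-biased list, and WT replicate 3 is lowest for the male-biased list.

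Between genotypes, 0 members of either list passed FDR 0.05 by edgeR. Of the 26 male-biased genes, 14 had negative and 12 positive log2 fold changes (median -0.10), and 5 had an unadjusted p under 0.05, against 3.62% of all genes. In KO, 1 lay wholly below, against 3.96% of all genes, and 2 wholly above, against 4.15%. The stress gene Gadd45g was the one below, with 12.1 to 37.0 CPM in WT tumours and 3.32 to 5.35 in KO tumours (-2.49 ± 0.44 (SE), edgeR FDR 1). Those above were the Hedgehog ligand Ihh (1.86 ± 0.60) and the cytochrome Cyp2u1 (1.20 ± 0.48). Selenbp2, with 25.3 to 76.2 CPM in WT tumours and 68.9 to 588 in KO tumours, had 2.50 ± 0.87, and 1.08 without KO replicate 2. The abundant members Serpina1e, Cyp2f2 and Cyp2d9 overlapped widely, at 0.13 ± 1.31, 0.59 ± 1.20 and -0.25 ± 0.50, and each changed sign when some library was left out. The male-biased median was 0.48 without WT replicate 2 and -0.47 without KO replicate 3.

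Of the 32 female-biased genes tested, out of 34 listed, 23 had negative and 9 positive log2 fold changes (median -0.51). Over all genes, 51.8% had negative ones. Of the 32, 7 had an unadjusted p under 0.05, against 3.62% of all genes. Wholly below in KO were Fmo2, Tox and Cyp2b9, 3 of 32 against 3.96% of genes, and wholly above was Cyp2a4, against 4.15%. The monooxygenase gene Fmo2 stood at 55.0, 218 and 85.02 CPM in the WT tumours and at 25.9, 41.3 and 29.0 in the KO tumours (-1.90 ± 0.52 (SE), and -1.12 without WT replicate 2). Tox, a nuclear factor also used by T cells, ranged from 7.85 to 12.1 CPM in WT tumours and from 1.17 to 3.74 in KO tumours (-2.04 ± 0.45). Cyp2b9 had -0.69 ± 0.25 and Cyp2a4 had 1.09 ± 0.39, the latter with 712 to 1930.2 CPM in WT tumours and 2687 to 2848 in KO tumours. Cyp3a41b, a female-biased cytochrome, ranged from 0.0251 to 4.31 CPM in WT tumours and from 0.0190 to 0.196 in KO tumours, with -4.55 ± 1.58. The other abundant members Cyp2a5, Cyp4a10 and Abcd2 had 0.21 ± 0.64, -2.12 ± 1.26 and 0.15 ± 0.47. Cyp4a10 was at -0.017 without WT replicate 2 and -3.24 without KO replicate 2. Cyp genes of these groups have close paralogs, so their counts are uncertain. The median of the list ranged from -1.17 when KO replicate 3 was left out to -0.04 when WT replicate 2 was.

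Hepatocyte transcription factors that act beside STAT5 were close to balanced. Of 25 tested, 14 had negative and 11 positive log2 fold changes (median -0.02), 0 passed FDR 0.05 by edgeR, and 4 had an unadjusted p under 0.05, against 3.62% of all genes. The groups did not overlap for 3 below in KO and 2 above, against 3.96% and 4.15% of all genes. Cebpb, Esr1 and Tox lay wholly below in KO, at -0.44 ± 0.19, -0.60 ± 0.27 and the value given above. Cebpb was at -0.28 without KO replicate 1 and Esr1 at -0.35 without it. Foxa1, a pioneer factor of liver enhancers, and Nr0b2, the nuclear receptor that curbs bile acid synthesis, lay wholly above, at 0.43 ± 0.17 and 1.21 ± 0.40, the latter at 0.73 without KO replicate 2. Foxa1 ranged from 11.6 to 13.3 CPM in WT tumours and from 14.1 to 18.0 in KO tumours.

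For each gene of the set, the 3 genes with the closest profile were taken by Pearson's r of log2 CPM over the 6 tumours, among 13865 genes outside the set with a mean of at least 1 CPM. The correlations rest on 6 points that share library depth and composition within each tumour, and they are a description. Ghr was closest to Camta1 (r = 0.996), Cml2 (0.995) and Proca1 (0.994), of which Cml2 had 149 to 728 CPM. Mup20 was closest to its pseudogene Mup-ps19 (0.995), to the mitochondrial enoyl-CoA isomerase gene Eci2 (0.991) and to Gm15446 (0.990). Since 48.0% of the 50-base stretches of Mup20 also occur in Mup-ps19, reads of the 2 rows may not be separate. The part of shared reads in that correlation was not tested. Mup3 was closest to Gm26694 (0.997), Htatsf1 (0.995) and the peroxisome assembly gene Pex26 (0.993). Mup7 was closest to the Y-linked gene Eif2s3y (0.998), Zcchc4 (0.996) and Tstd3 (0.996), whose levels spanned a far narrower range than Mup7, 34.2 to 54.8 CPM for Eif2s3y. For Cux2 the closest were Zfp97 (0.996), the myeloid receptor gene Cd300e (0.990) and Fcnaos (0.989). Cd300e had 3.37 CPM in WT replicate 2 and 0.741 to 1.69 elsewhere, and the summed macrophage markers were also highest in that tumour, at 291 CPM. Their part in the Cux2 value was not tested. Bcl6 was closest to Zbtb26 (0.989), Snx14 (0.988) and Klf3 (0.985). Stat5a was closest to Mettl15 (0.998), Samd1 (0.993) and Ube2d1 (0.993), and Stat5b to Gtf3c3 (0.994), Kdsr (0.986) and Gabpa (0.985).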

How the data were processed

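RNA sequencing libraries of 6 tumours were grouped by genotype from the sample titles. In the authors' deposited table, each gene has whole-number read counts and RPKM for every tumour. The tools HTSeq, bcl2fastq and TopHat2 (2.0.6) and the human builds hg19 and GRCh37 are listed, per the submitters' processing notes, with no role stated, although the identifiers are of mouse. Of 42462 identifiers shared with GENCODE M21 (GRCm38), 84.2% had the same start, so coordinates are read as GRCm38. The table also lists a gene length. The deposited RPKM served for comparing levels between genes. No source used here gives the strand setting.

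Counts were fitted with edgeR 4.0.16 in R 4.3.3 (filterByExpr, TMM factors, robust quasi-likelihood test, two-sided, Benjamini-Hochberg adjustment over the 18359 genes kept, FDR 0.05 without a fold minimum). All 8 genes of the set passed the filter. Alternatives were DESeq2 1.42.0, limma voom 3.58.1, upper-quartile or RLE factors, no filter, the replicate number as a block, the number opening the sample description (under 2000 against over 3900) as a covariate, removal of the 10 most counted genes or of the Mup rows from library sizes, and leaving out each library.

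The set and the 5 gene lists were chosen with earlier results of these data known. The named genes were the whole set, the 3 members of smallest p of each list, Cish, Socs2, Socs3, Igf1 and Igfals, and the 4 most abundant members of each sex-biased list. Stat3, Socs1, Cyp2b9, Cyp2u1, Cebpb, Esr1 and the Mup rows at the ends of the range were named after their values were seen. Of the 8 marker lists, 7 are given with the results. The other, of stellate cells and fibroblasts, summed to 152 to 336 CPM over WT tumours and 282 to 496 over KO tumours. Shared 50-base stretches were counted in GENCODE M21 transcripts on both strands. Promoters are from RefSeq. The edgeR step was tested on simulated data.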

Additional observations from a re-analysis of the deposited data

How the results depend on the processing

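Of 120 values of the 8 genes under 15 alternative settings, 0 changed sign, and 119 also kept their side of FDR 0.05. The exception was Mup7 under DESeq2 (log2 fold change -4.87). DESeq2 moved the count of calls from 0 to 62 and that of the set from 0 to 1; its other calls among the named genes were Socs2, Socs3, Gadd45g and Tox. The number of genes at an unadjusted p under 0.05 was 665, and was 1090 by DESeq2 and 1779 without WT replicate 3. With the replicate block, 0 genes and 0 of the set passed, Cux2 was at -3.26, Mup7 at -4.29, and Cyp2f2 changed sign to -0.10. The labels do not say whether same-numbered libraries were paired. Correlations of their deviations from the group means were -0.29, 0.18 and -0.34 for replicates 1, 2 and 3. For WT replicate 3 with KO replicate 1 the correlation was 0.51. With 3 libraries per group, these values cannot decide whether libraries were paired. Cyp2f2 was also at -0.093 by limma voom. With the description-number covariate Cux2 was at -2.62. Leaving out each library, Cyp2d9 ran from -0.81 to 0.090, Serpina1e from -1.36 to 2.47, Cyp2f2 from -0.047 to 1.64, Cyp4a10 from -3.24 to -0.017, Cyp2a5 from -0.24 to 0.78 and Abcd2 from -0.24 to 0.48. The causes were not tested. Depth is ample for Ghr and the abundant Mup genes, whereas Socs1, Gli1 and the rarer Mup rows rest on few reads.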
